A study of Nannospalax ehrenbergi and Mus musculus with 14 samples.

Results

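The comparison described here set mouse fibrosarcoma against muscle of the uninjected side. It uses 6 of the 14 microRNA libraries of the series, chosen by their labels: 3 libraries of the injected side (IS), where a tumor had grown, and 3 of the uninjected side (UIS), with every microRNA name of the mouse table. The animals were male C57BL/6 mice of 3 to 4 months that had received a single subcutaneous injection of 3-methylcholanthrene (3MCA), a polycyclic hydrocarbon that causes sarcomas, in the left flank of the neck. There was no untreated group, so both sides come from animals that carried the carcinogen and a tumor. They are called mouse A, B and C here and were sampled 14, 12 and 11 weeks after the injection. The IS sample was the most proximal part of the removed tumor, diagnosed as fibrosarcoma, and thus bulk tissue that can hold muscle, vessels and blood besides tumor cells. The label of 1 UIS sample names mouse A, but its column in the deposited table bears an animal number that no label has, so it was used as an unpaired UIS replicate and is called UIS X. The comparison asks which microRNAs differ between an established mouse fibrosarcoma and the tissue of the untreated side. In bulk tissue, fewer cells of a type and less of a microRNA per cell cannot be told apart.

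MicroRNAs are short RNAs that guide Argonaute proteins to messenger RNAs and lower their stability and translation. A hairpin precursor is cut by Dicer, and the strand from its 5′ arm (5p) or its 3′ arm (3p) is kept, while the other strand is mostly lost. Targets are chosen largely through the seed, the bases next to the 5′ end, so microRNAs with the same seed form a family. Many microRNA genes lie in clusters that are transcribed as a single precursor. Skeletal muscle is dominated by miR-1 and the miR-133 family, while sarcomas and fibroblasts carry miR-21, miR-199 and miR-214.

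Mature sequences were not used here, and the hairpins below come from the GENCODE M21 transcripts of the mouse genome GRCm38, written 5′ to 3′ in DNA letters. The first set is shown because the 5p strands of miR-466b and miR-466o, with the largest fitted log2 fold change, were given identical values in all libraries. Capitals mark the 51 bases that both hairpins share. Mir466b-1 lies at chr2:10474219-10474300 and Mir466o at chr2:10472540-10472623, both on the plus strand in an intron of Sfmbt2, a Polycomb-group gene. The name miR-466b-5p matches 8 annotated Mir466b genes there, of which Mir466b-1 is shown. These reads therefore cannot be assigned to any single gene.
Mir466b-1: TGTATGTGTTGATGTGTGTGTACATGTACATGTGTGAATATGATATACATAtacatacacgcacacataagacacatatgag
Mir466o: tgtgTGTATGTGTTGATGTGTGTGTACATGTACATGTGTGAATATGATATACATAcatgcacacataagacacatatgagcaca

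The second set holds families whose members are alike in sequence but moved differently. Capitals mark the longest run shared within a family, for miR-30 with Mir30c-2 and Mir30d included. Mir34a stands alone at chr4:150068454-150068555 on the plus strand, whereas Mir34b at chr9:51103562-51103645 and Mir34c at chr9:51103034-51103110 are neighbours on the minus strand, opposite an intron of Btg4. Mir29a lies at chr6:31062660-31062747 on the minus strand and Mir29c at chr1:195037547-195037634 on the plus strand, in an exon of the noncoding gene A330023F24Rik and opposite an exon of Cd46. Mir30a lies at chr1:23272269-23272339 on the plus strand with no other gene annotated there, and Mir30e at chr4:120772606-120772697 on the minus strand in an intron of Nfyc.
Mir34a: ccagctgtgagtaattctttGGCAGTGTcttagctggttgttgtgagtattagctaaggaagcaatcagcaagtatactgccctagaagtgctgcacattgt
Mir34b: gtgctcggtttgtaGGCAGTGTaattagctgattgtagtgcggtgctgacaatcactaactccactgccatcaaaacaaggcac
Mir34c: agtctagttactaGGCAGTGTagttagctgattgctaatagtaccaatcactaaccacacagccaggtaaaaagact
Mir29a: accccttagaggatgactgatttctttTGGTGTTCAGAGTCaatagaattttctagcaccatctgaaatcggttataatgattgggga
Mir29c: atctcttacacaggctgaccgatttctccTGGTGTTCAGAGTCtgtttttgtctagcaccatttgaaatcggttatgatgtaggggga
Mir30a: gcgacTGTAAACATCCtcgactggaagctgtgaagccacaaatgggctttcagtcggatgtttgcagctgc
Mir30e: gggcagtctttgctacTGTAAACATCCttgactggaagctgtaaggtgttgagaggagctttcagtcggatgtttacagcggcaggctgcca

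The third set holds hairpins whose 5p and 3p strands changed in different proportion between the sides, described with the arm ratios. Capitals mark the terminal loop of the predicted fold (RNAfold), with the 5p arm before it and the 3p arm after it. Mir25 lies at chr5:138165321-138165404 on the minus strand within Mcm7, which encodes a subunit of the replicative helicase. Mir455 lies at chr4:63256851-63256932 on the plus strand in an intron of the collagen gene Col27a1, and Mir542 at chrX:53049403-53049487 on the minus strand of the X chromosome. Mir31, at chr4:88910557-88910662 on the minus strand, is shown as the gene of the microRNA with the largest rise among those above 10000 normalized counts in each tumor.
Mir25: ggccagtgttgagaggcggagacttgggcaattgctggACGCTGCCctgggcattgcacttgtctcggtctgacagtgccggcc
Mir455: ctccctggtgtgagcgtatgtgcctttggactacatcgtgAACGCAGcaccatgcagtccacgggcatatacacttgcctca
Mir542: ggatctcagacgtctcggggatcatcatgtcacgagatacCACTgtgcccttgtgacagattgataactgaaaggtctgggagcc
Mir31: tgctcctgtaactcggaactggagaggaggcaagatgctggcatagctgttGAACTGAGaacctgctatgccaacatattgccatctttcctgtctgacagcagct

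The deposited values are normalized counts, that is, the reads of each library scaled by its own size factor. In the text, 3 values for the UIS stand in the order UIS X, mouse B and mouse C, and 3 values for the IS in the order mouse A, B and C. The UIS libraries held between 11446933 and 13982842 reads on microRNAs and the IS libraries between 3455106 and 9574014. A microRNA with 3 reads, taken as the floor, was 2.15e-05% of the deepest library and 8.68e-05% of the shallowest, for counting error only. The sides differed in composition, since the 10 most abundant names took 77.6% to 86.3% of the reads at the UIS and 46.8% to 53.1% at the IS. The tumor of mouse A was nearly free of muscle microRNAs, and UIS X stood at least 4-fold above both other UIS libraries for 10 names, among them miR-31-5p and names of the Dlk1-Dio3 domain.

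In all, 547 of the 1326 names passed the filter of 10 normalized counts in at least 3 libraries and were tested with limma on log2(value + 1), a scale that understates the change of rare microRNAs. At an adjusted p under 0.05, 316 names changed, which is 57.8% of those tested. Of these, 176 were higher at the IS (32.2% of the names tested) and 140 were lower (25.6%). A name under 10 normalized counts throughout a side passed the filter only if all 3 libraries of the other side reached 10. The counts of calls are thus partly set by the filter. At least 4-fold changes on this scale were found for 143 of the higher and 81 of the lower names. The IS and UIS libraries did not overlap for 365 names, or 66.7% (36.6% with the IS higher and 30.2% with the IS lower). The direction depended on the scaling. The median log2 fold change of all names tested was 0.21 with the deposited size factors and 2.24 when reads were scaled to library totals, a shift of 2.03. Under library totals 376 names passed as higher (68.7%) and 31 as lower (5.67%), so higher names made up 92.4% of the calls instead of 55.7%. Since this scaling moves names upward, that the 176 higher names stayed above 0 says nothing of them, and list counts under it are to be read beside 68.7% and 5.67%. Of the lower names, 63 of the 140 stayed below 0 and 77 turned above it, 13 of those with an adjusted p under 0.05. Leaving out the UIS library of mouse B gave 189 calls and leaving out the IS library of the same mouse gave 203.

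**Figure D1:**
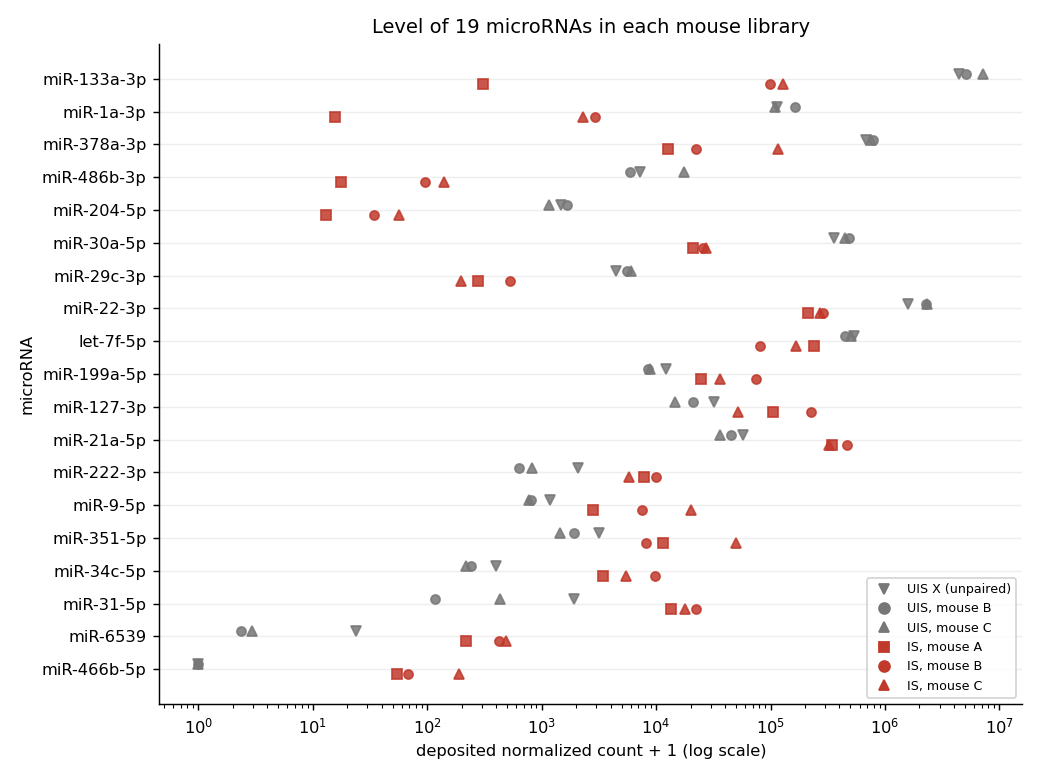
Deposited normalized count plus 1 (log axis) of 19 microRNAs in each of the 6 libraries. Grey symbols are UIS and red symbols IS libraries, and the shape gives the animal. The red symbols of miR-133a-3p and miR-1a-3p are far apart, with mouse A lowest, whereas those of miR-21a-5p and miR-30a-5p lie close together.

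The largest falls were those of the muscle microRNAs. miR-133a-3p, which with miR-1 marks striated muscle, was the most abundant microRNA of every UIS library, with 4445837, 5067258 and 7225377 normalized counts. At the IS it had 307, 98037 and 128284. All 3 tumors were below all 3 UIS libraries, but mouse A was far below the other tumors. The log2 fold change was -8.44 ± 2.17 (SE, n = 3 per side, adjusted p = 0.0157). miR-1a-3p, which represses growth genes in muscle, had 113269, 162565 and 110216 at the UIS and 14.5, 2908 and 2302 at the IS, a log2 fold change of -8.07 ± 1.89 (adjusted p = 0.0109). Without the tumor of mouse A the log2 fold changes were -5.61 for both, and the call of miR-133a-3p was lost without the UIS library of mouse C (adjusted p = 0.0531). miR-133a-5p, the other strand of the hairpin, fell by 7.43 on the log2 scale (adjusted p = 0.0329), a call lost without any 1 of the UIS libraries.

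Of 17 names on the list of skeletal muscle microRNAs 8 passed the filter, and 4 of these fell, none rose and 4 did not pass the test. The median log2 fold change of the 8 was -5.60, beside 0.21 for all names tested. Besides both strands of miR-133a and miR-1a-3p, miR-1a-1-5p fell. miR-206-3p, which is found in skeletal but not heart muscle and in muscle progenitors, had 2978, 2159 and 1426 normalized counts at the UIS and 11.2, 161 and 3703 at the IS. The tumor of mouse C thus held more of it than each UIS library, while that of mouse A held almost none. miR-133b-3p, encoded beside miR-206, had 13.8, 2749 and 15621 at the IS against 55048, 60383 and 88772 at the UIS (log2 fold change -6.28 ± 2.31, adjusted p = 0.0512, and 0.00551 with the animal as a block). The list took 29.8, 28.7 and 27.7% of the reads of the UIS libraries and 0.0101, 2.57 and 3.95% at the IS. With the animal as a block 5 names fell, and 3 did without UIS X. Here and below, the block leaves the mouse change to the pairs of mice B and C. The tumor of mouse A, nearly free of muscle microRNAs, and UIS X have no partner and do not enter it. miR-208b-3p and miR-499-5p, both hosted by myosin genes of slow and heart muscle, did not pass, and at the UIS mouse C stood apart with 1368, 1721 and 80.7 and 622, 623 and 32.7 normalized counts. The part that remaining muscle in the tumors of mice B and C had in other results was not tested.

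The 5 names of the miR-378 family, which includes the microRNA hosted by the metabolic coactivator gene Ppargc1b, all fell, with log2 fold changes from -5.15 to -4.35. All 5 also passed as lower under library totals, with the animal as a block and without UIS X. miR-378a-3p had 689782, 786072 and 757193 normalized counts at the UIS and 12668, 22385 and 115655 at the IS. The UIS libraries lay within a narrow range and the tumor of mouse C was the highest of the tumors. As a share of reads, the family took 5.30, 5.09 and 3.36% at the UIS and 0.451, 0.671 and 3.44% at the IS, so by library totals the pair of mouse C showed no fall.

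Of the 7 names on the list of red cell microRNAs, 4 fell, all of them strands of miR-486, which is made in red cell precursors and also in muscle. miR-486a-5p and miR-486b-5p, 2 names with identical values, had 1106111, 1481586 and 4704593 at the UIS and 17207, 43200.4 and 118677 at the IS (log2 fold change -5.47 ± 0.81, adjusted p = 0.00246). miR-486b-3p fell by 7.19 and miR-486a-3p by 7.03 on the log2 scale. The members found in red cells alone did not pass. miR-451a, a microRNA cut by Argonaute 2 instead of Dicer, had 7916, 26103 and 126347 at the UIS and 2938, 5676 and 8032 at the IS (adjusted p = 0.0573, and 0.00623 with the animal as a block). miR-144-3p, encoded in the same transcript, had 187, 384 and 1869.8 at the UIS and 122, 262 and 344 at the IS (adjusted p = 0.265). For both, the UIS library of mouse C was the highest of all 6 and the tumors overlapped UIS X. With the block, and also without UIS X, 6 of the 7 names fell.

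Among the other large falls, miR-204-5p, which is known from the eye and other epithelia and from fat cells, had 1476, 1657 and 1159 normalized counts at the UIS and 12.0, 33.2 and 55.6 at the IS. Its log2 fold change was -5.60 ± 0.59 (adjusted p = 0.000951). miR-124-3p, the main neuronal microRNA, had 61.1, 61.8 and 46.1 at the UIS and 0 reads in every tumor, so it was at least 25.6-fold lower against a floor of 3 reads per library. miR-1963 had 50.2, 75.5 and 90.3 at the UIS and 0, 0 and 6.67 at the IS. These 3 falls kept their direction and call under library totals.

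The miR-30 family, which is abundant in differentiated tissues, fell as a group: 10 of its 11 tested names were lower and none higher, with a median log2 fold change of -1.996. The size of the fall differed between members that share the run TGTAAACATCC shown above. miR-30a-5p had 356192, 484525 and 443994 normalized counts at the UIS and 21191, 25827 and 27254 at the IS, a log2 fold change of -4.11 ± 0.26 (adjusted p = 0.000198). miR-30a-3p fell by 5.37 on this scale. miR-30c-5p had a log2 fold change of -3.41. miR-30d-5p and miR-30e-5p had -1.95 and -1.49, which turned to 0.44 and 0.89 under library totals. Only 4 of the 11 names passed as lower under that scaling and 1 passed as higher. A ratio within a library does not depend on the scaling. The log2 ratio of miR-30a-5p to miR-30e-5p, chosen after the values were seen, was 2.42, 2.49 and 3.08 in the UIS libraries and 0.18, -0.04 and -0.01 in the IS libraries, so the 2 were at nearly equal levels in each tumor. The sides did not overlap, and the exact permutation test gave p = 0.1, the smallest that 3 libraries against 3 allow.

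The miR-29 family, which represses collagen and other matrix genes, was split. miR-29c-3p had 4459, 5593 and 6044 normalized counts at the UIS and 279, 529.7 and 198 at the IS (log2 fold change -4.11 ± 0.43, adjusted p = 0.000951). miR-29a-3p had 41859, 55201 and 39667 and 20863, 28277 and 19749, a log2 fold change of -0.99 that turned to 1.39 under library totals and whose call was lost with the block (adjusted p = 0.0586) and without UIS X, the UIS of mouse B or the IS of mouse A. miR-29b-3p did not pass (log2 fold change 0.24, adjusted p = 0.61). In all, 4 of the 7 names fell and none rose, and 2 of the 6 names tested without UIS X fell. Under library totals 4 passed as higher and 3 as lower. The log2 ratio of miR-29c-3p to miR-29a-3p, also chosen after the values were seen, was -3.23, -3.30 and -2.71 at the UIS and -6.23, -5.74 and -6.64 at the IS (exact permutation p = 0.1, the smallest possible).

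For let-7, miR-26, miR-101 and miR-22 the call depended on the scaling. Of 21 tested names of the let-7 family, which restrains growth and is high in differentiated tissue, 8 fell and none rose, but under library totals 16 passed as higher and none as lower. let-7f-5p had 536974, 452119 and 502938 normalized counts at the UIS and 238975, 81224 and 167438 at the IS, with a log2 fold change of -1.74 that turned to 0.64 under library totals. let-7a-5p (-1.65 against 0.73) and let-7c-5p (-0.95 against 1.43) turned in the same way. With the animal as a block 4 of the let-7 names fell, 5 did without UIS X, and let-7c-5p was not among them (adjusted p = 0.0717). Its call was also lost without UIS X or the IS of mouse B. All 8 tested names of miR-26 and miR-101, which repress the Polycomb methyltransferase Ezh2, fell with the deposited factors and 4 did with the block, but 1 passed as higher and none as lower under library totals. miR-26a-5p had 1070347, 1276363 and 1310129.8 at the UIS and 169429.7, 177921 and 111959 at the IS (log2 fold change -3.02 ± 0.27, and -0.63 under library totals, adjusted p = 0.122). miR-22-3p, the second most abundant name at the IS, went from 1596907, 2271595 and 2340697 to 213733, 284771 and 272548 (log2 fold change -2.99986 ± 0.26, and -0.62 under library totals, adjusted p = 0.0840).

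Vessel microRNAs behaved in the same manner. All 5 tested names of miR-143 and miR-145, which keep smooth muscle cells contractile, fell, with miR-143-3p at 560527, 735447 and 638849 at the UIS and 90253, 112859 and 129321 at the IS. The number was 2 with the animal as a block and 0 under library totals. Both strands of miR-126a, the endothelial microRNA of the Egfl7 gene, fell. miR-126a-3p had 40157, 55289 and 24475 at the UIS and 15764, 7793 and 3370.4 at the IS (log2 fold change -2.35, which was 0.04 under library totals), and its call was lost without the UIS of mouse B (adjusted p = 0.0605).

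Among the rises, miR-21a-5p, which is induced by growth signals and represses the tumor suppressor Pdcd4, was the most abundant microRNA of every tumor, with 8.53% to 11.4% of the reads. It had 57985, 45325 and 36497 normalized counts at the UIS and 346866, 466882 and 327326 at the IS, a log2 fold change of 3.04 ± 0.29 (adjusted p = 0.000581). miR-21a-3p, the other strand, rose by 3.78. The names miR-21b and miR-21c had 12.4 to 23.1 at the UIS and 24.4 to 35.2 at the IS and did not pass.

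miR-31-5p, a microRNA with growth-promoting or growth-restraining roles depending on the tumor, had 1922, 115 and 429 normalized counts at the UIS and 13402, 22410.0 and 17724 at the IS. The sides were far apart, and UIS X was the highest UIS library. The log2 fold change was 5.25 ± 0.94 (adjusted p = 0.00471). miR-31-3p rose from 9.50, 1.37 and 5.77 to 201, 482 and 454 (log2 fold change 6.00 ± 0.68). All 4 strands of miR-221 and miR-222, neighbours on the X chromosome that repress the cell-cycle inhibitor p27, rose. miR-222-3p had 2086, 637 and 826 at the UIS and 7878, 9954 and 5814 at the IS (log2 fold change 2.90 ± 0.50, adjusted p = 0.00414), and miR-221-3p rose by 1.71.

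Of the miR-34 and miR-449 family, which represses cell-cycle genes and whose miR-34 members p53 induces, 6 of 7 tested names rose, with a median of 2.91. The exception was miR-34a-5p, with 495, 569.6 and 307 normalized counts at the UIS and 291, 308 and 269 at the IS (log2 fold change -0.61, adjusted p = 0.193, and 1.71 under library totals). miR-34c-5p, from the separate Mir34b and Mir34c locus, had 402, 239 and 219 and 3469.7, 9773 and 5503, a log2 fold change of 4.37 ± 0.48 (adjusted p = 0.001). miR-34b-5p rose by 3.41. In the UIS libraries miR-34c-5p was below miR-34a-5p, with log2 ratios of -0.30, -1.25 and -0.49, and in the tumors it was above it, with 3.57, 4.99 and 4.35. The ratio, chosen after the values were seen, did not overlap between the sides (exact permutation p = 0.1, the smallest possible).

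Of the X-linked cluster of miR-322, miR-351, miR-503, miR-450 and miR-542, of which miR-322 and miR-503 share the seed of miR-15 and miR-16 and slow the cell cycle, 8 of 11 tested names rose and none fell. miR-351-5p had 3141, 1931 and 1443 normalized counts at the UIS and 11480.0, 8217 and 49713 at the IS, with the tumor of mouse C at the top (log2 fold change 3.02 ± 0.70). miR-542-3p went from 69.2, 61.8 and 36.5 to 538, 722 and 2031 (log2 fold change 4.08 ± 0.59). miR-322-5p rose by 1.43 and miR-450a-5p by 1.96. The calls of miR-322-5p (without UIS X, the IS of mouse B or the UIS of mouse C) and of miR-450a-5p (without either library of mouse B or the IS of mouse C) were lost on leaving out 1 library, and 5 names of the list rose without UIS X.

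Of the growth-promoting miR-17/92 cluster, 6 of 10 tested names rose, 4 did with the block and 10 under library totals. Its most abundant strand, miR-92a-3p, did not pass (log2 fold change 0.19, adjusted p = 0.585), while miR-19b-3p rose from 783, 1286 and 1184 normalized counts to 2299.7, 5409 and 6121 (log2 fold change 2.00 ± 0.46). Of the related clusters of miR-106b and miR-25 and of miR-106a and miR-363, 1 of 8 names rose, miR-25-5p, and none fell, a share below the 32.2% over all names, and 8 of 8 passed as higher under library totals. Of the families of miR-148, miR-152, miR-130 and miR-301, 6 of 12 names rose, among them miR-301a-3p (log2 fold change 1.84), 3 did so without UIS X and 12 under library totals. Of miR-15 and miR-16 themselves, 2 of 10 names rose and none fell, 0 rose with the block or without UIS X, and 8 passed as higher under library totals.

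Of the names of miR-199 and miR-214, which mesenchymal cells make from the antisense transcripts of the dynamin genes, 5 of 6 rose and 3 did so without UIS X. miR-199a-5p had 12118, 8481 and 8826 normalized counts at the UIS and 24449.6, 74954 and 36316 at the IS (log2 fold change 2.07 ± 0.45, adjusted p = 0.00844), and the tumor of mouse B was the highest. miR-214-3p rose by 2.36. miR-199a-3p and miR-199b-3p have identical values and followed miR-22-3p at the IS, with 83609, 91379 and 52341 at the UIS and 129447, 272259.7 and 122153 at the IS (log2 fold change 1.14 ± 0.40, adjusted p = 0.046). Their call was lost on leaving out any 1 of UIS X, the libraries of mouse B, the IS of mouse A and the UIS of mouse C. The hairpins Mir199a-1 and Mir199b share the run that gives this strand.
Mir199a-1: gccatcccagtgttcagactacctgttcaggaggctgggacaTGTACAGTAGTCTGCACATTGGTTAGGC
Mir199b: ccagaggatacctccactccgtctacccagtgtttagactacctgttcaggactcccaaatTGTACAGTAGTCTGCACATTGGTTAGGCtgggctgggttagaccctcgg

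Leukocyte microRNAs differed between the tumors. Of the myeloid names of miR-223 and miR-142a, 2 of 4 rose, 0 did with the animal as a block, 1 without UIS X and 4 under library totals. miR-142a-3p, made in all blood cells, had 279.6, 343 and 527 normalized counts at the UIS and 2439, 2193 and 947 at the IS (adjusted p = 0.00852, and 0.0717 with the block). The far more abundant strand miR-142a-5p did not pass (log2 fold change 1.35, adjusted p = 0.0965). For that strand the tumor of mouse C was below the UIS library of the same mouse. miR-223-3p, of neutrophils and macrophages, had 908, 1308 and 404 and 4834, 3669 and 1209 (adjusted p = 0.0487, and 0.0546 with the block). Its call was lost on leaving out any 1 library other than the IS of mouse C. The lymphocyte microRNA miR-150-5p had 7744, 6971 and 3125 and 5312, 1002 and 343 (adjusted p = 0.0905, and 0.00569 with the block), while miR-342-3p rose by 1.98. miR-146a-5p, which dampens inflammatory signalling, had 5022, 1999 and 1303 and 19864, 5006 and 2186 and did not pass (adjusted p = 0.213). For miR-142a-3p, miR-223-3p, miR-150-5p and miR-146a-5p, the tumor of mouse A was the highest and that of mouse C the lowest. Of the inflammatory list 1 of 4 names rose (4 under library totals), miR-147-3p, a microRNA of activated macrophages, with 24.4, 12.4 and 5.77 at the UIS and 293, 364 and 643 at the IS (log2 fold change 4.96 ± 0.60, adjusted p = 0.00137). It was highest in the tumor of mouse C.

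**Figure D2:**
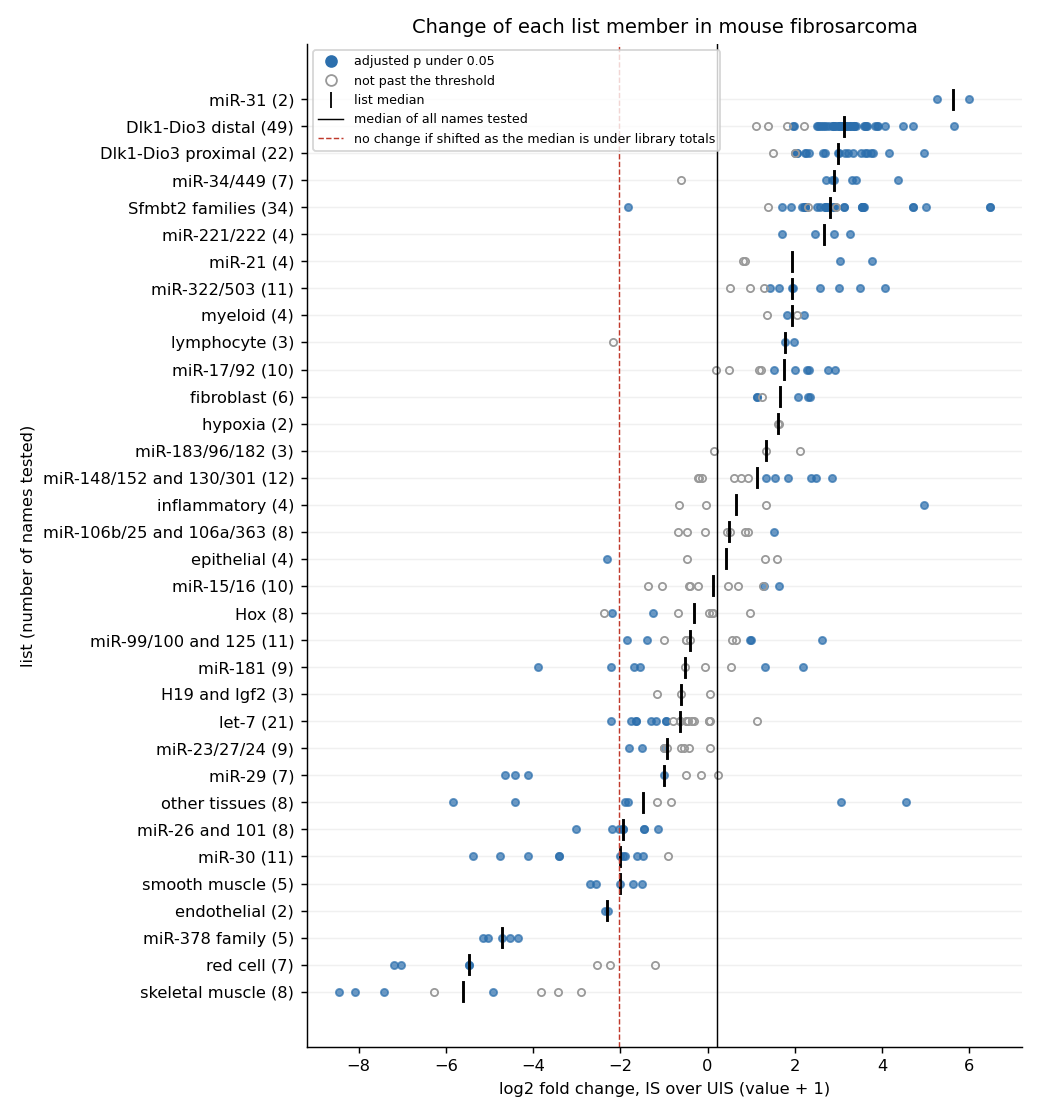
Log2 fold change (IS over UIS) of each tested member of 34 lists, ordered by the list median. Filled points passed an adjusted p of 0.05, and the red dashed line marks no change for a name shifted as the median is under library totals. The Dlk1-Dio3, Sfmbt2 and miR-31 lists lie to the right, the muscle, red cell and miR-378 lists to the left, and most let-7, miR-26 and miR-143 names fall between the lines.

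The Dlk1-Dio3 domain on chromosome 12 gave the most rises. This imprinted domain carries many microRNA hairpins that are expressed from the maternal chromosome along with the noncoding RNA Meg3, in embryo, brain and muscle progenitors above all. In these data, 71 tested names came from 47 hairpins between chr12:109571990-109743795 of GRCm38, in 2 groups 90.8 kb apart. Of the 22 names of the first group 20 rose, and of the 49 of the second 45 rose. None fell. Some names, such as miR-370-5p with 1, 0 and 0 reads at the UIS, passed the filter only through the tumors. The medians were 3.00 and 3.12, beside 0.21 for all names tested. With the animal as a block 20 and 40 names rose, and without UIS X 19 and 46. UIS X was the highest UIS library for 62 of the 71 names, and without it the counts were nearly the same.

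miR-127-3p, which lies antisense to the imprinted gene Rtl1 and was the most abundant of these, had 32182, 20819.8 and 14693 normalized counts at the UIS and 105812, 225494 and 52367 at the IS. All tumors were above all UIS libraries, with mouse B the highest. Its log2 fold change was 2.33 ± 0.57 (adjusted p = 0.0131), and its adjusted p without the UIS of mouse C was 0.0501. miR-434-5p, which also lies antisense to Rtl1, went from 544, 357 and 306 to 3602, 10727 and 2358 (log2 fold change 3.52 ± 0.60). In the second group, miR-411-5p had 5438, 3195 and 2756 and 22487, 50150.3 and 8318 (log2 fold change 2.54 ± 0.66), a call lost without the UIS of mouse B or of mouse C. miR-381-3p had 1458, 804 and 473 and 4834, 9090.5 and 6826 (log2 fold change 3.02 ± 0.49). miR-410-3p, at the far end, had 749, 480.4 and 463 and 3296, 7697 and 4328 (log2 fold change 3.12 ± 0.42).

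The 3 names of the domain among the 10 largest rises were rare at the UIS. miR-409-5p had 28.5, 0 and 11.5 normalized counts there and 352, 809 and 161 at the IS (log2 fold change 5.64 ± 1.27). miR-370-3p had 39.4, 8.24 and 0 and 269, 324 and 130.01 (4.97 ± 1.27), and miR-380-3p 66.5, 16.5 and 7.69 and 515, 1078 and 331 (4.71 ± 0.83). For each of these 3, UIS X was the highest UIS library and mouse C the lowest tumor. The first hairpin of the second group gave miR-379-5p, which did not pass (log2 fold change 1.39, adjusted p = 0.159). The domain as a whole took 0.249, 0.138 and 0.0715% of the reads at the UIS for the first group and 3.74, 7.05 and 1.82% at the IS, and 0.101, 0.0442 and 0.0233% and 1.92, 3.44 and 0.803% for the second.

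**Figure D3:**
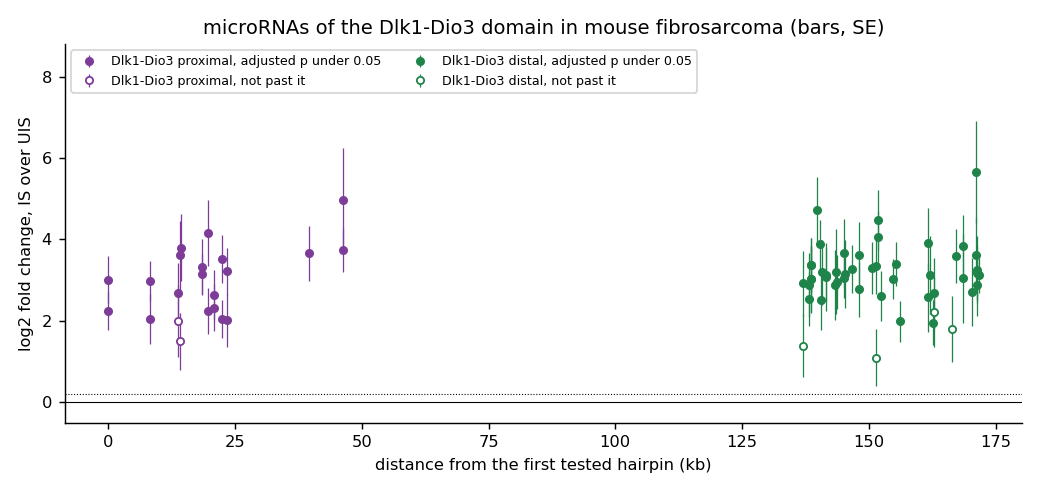
Log2 fold change (IS over UIS, with SE) of 71 tested microRNA names of the Dlk1-Dio3 domain against the distance of their hairpin from the first one, in kb. All points lie above 0 and above the dotted line, the median of all names tested (0.21), and open points did not pass the test.

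The second large group of rises came from the families miR-297, miR-466, miR-467 and miR-669, whose main cluster lies in an Sfmbt2 intron on chromosome 2 and is known from mouse placenta and embryonic stem cells. These repeats share much sequence, and the 34 tested names had 23 distinct sets of values, so they are not independent. Of the 34 names 30 rose, 1 fell and 3 did not pass, with a median of 2.81. Names such as miR-466b-5p, miR-297a-5p and miR-669m-5p, with 0 reads at the UIS, passed the filter only through the tumors. The count of rises is thus partly set by the filter. With the block 21 rose and without UIS X 25 rose. miR-669a-3p, which shares its values with miR-669o-3p, had 391, 445 and 231 normalized counts at the UIS and 2133, 2549.6 and 4974 at the IS (log2 fold change 3.13 ± 0.46, adjusted p = 0.00246). miR-466b-5p, with the same values as miR-466o-5p, had 0 reads in all UIS libraries and 53.7, 66.5 and 190.0 in the tumors, at least 22.2-fold higher against the floor of 3 reads per library. miR-297a-5p and miR-669m-5p also had 0 reads at the UIS and were at least 9.87-fold and 7.11-fold higher, with 16.0, 17.3 and 104 and 10.9, 21.7 and 66.7. In each of these 4 the tumor of mouse C was the highest. The name that fell, miR-466i-5p, belongs to a gene on chromosome 13, outside the Sfmbt2 cluster. It had 1056, 310.2 and 307 and 91.0, 139 and 173 (log2 fold change -1.83, which was 0.51 under library totals). Its call was lost with the block (adjusted p = 0.26) and without UIS X, the IS of mouse A or either library of mouse B.

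Calls were also set beside position in the genome. Tested names with a single annotated gene fell into 40 clusters of at least 2 genes at most 10000 bases apart, outside chromosome 18. In 19 clusters the calls were all higher, in 14 all lower, in 7 there were none, and in 0 clusters did calls go both ways. A cluster with a single call, such as Mir25 to Mir106b, could not go both ways. Names with more than 1 gene were left out. Among them, miR-181a-5p fell, while the calls in the cluster of Mir181a-1 were higher. The 0 is thus partly set by the choice of names and says little of agreement between neighbours. Neighbours that are cut from the same precursor are not independent, and 3 of the 19 lie in the Dlk1-Dio3 domain and 2 in the Sfmbt2 region.

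Among rises outside these groups, miR-6539 had 23.1, 1.37 and 1.92 normalized counts at the UIS and 219, 425 and 491 at the IS (log2 fold change 6.03 ± 0.93, adjusted p = 0.0027). The neural microRNA miR-9 rose on both strands, with miR-9-5p at 1173, 803 and 778 and 2792, 7563 and 20373 (log2 fold change 3.06 ± 0.70) and miR-9-3p at 4.56. Of the list of microRNAs of other tissues, 2 of 8 names rose, both miR-9, and 4 fell (2 of the 6 names tested without UIS X), among them miR-124-3p and the liver and gut microRNA miR-192-5p (log2 fold change -1.82, which was 0.56 under library totals). Of the epithelial list 1 of 4 names fell (under library totals 0 did and 2 passed as higher), the skin microRNA miR-203-3p (log2 fold change -2.30, which was 0.07 under library totals), with 2442, 3233 and 603 at the UIS. Its call was lost without UIS X, the UIS or IS of mouse B or the IS of mouse C. The miR-200 names tested did not pass. The hypoxia-induced miR-210-3p had 307, 410.4 and 617 at the UIS and 347, 1842 and 3471 at the IS, with mouse A among the UIS libraries (adjusted p = 0.135, and 0.0185 with the block), and both strands passed as higher under library totals.

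Other families were mixed or had few calls. Of the miR-181 family 2 of 9 names rose and 4 fell (0 and 3 with the block, and 6 and 0 under library totals), with a log2 fold change of -1.54 for miR-181a-5p ( 0.84 under library totals). Of miR-99, miR-100 and miR-125, 3 of 11 names rose and 2 fell (1 and 0 with the block, and 9 and 0 under library totals), and miR-125b-5p did not pass (adjusted p = 0.148). Of the miR-23/27/24 clusters 3 of 9 fell and none rose, 1 fell with the block or without UIS X, 6 passed as higher and 0 as lower under library totals, and miR-27b-3p, with 213391, 247389 and 198392 and 76582, 89429 and 218433, did not pass (log2 fold change -0.94, and 1.45 under library totals). Of the Hox cluster microRNAs 2 of 8 fell, which is near the 25.6% over all names, 1 fell with the block or without UIS X, and under library totals 3 passed as higher and 0 as lower. Among the 2 was miR-10b-5p (log2 fold change -2.20, and 0.18 under library totals). miR-10a-5p, with 184281, 333928 and 161499.8 at the UIS and 139821, 91617 and 189557 at the IS, did not pass (-0.68, and 1.70 under library totals). None of the 3 names of the cluster of miR-183, miR-96 and miR-182 and none of the 3 of H19 and Igf2 passed, while under library totals 3 of the first and 0 of the second passed as higher. Of 22 microRNAs that the study tied to its genes of interest, 20 were tested, 5 rose and 3 fell, shares below the 32.2% and 25.6% over all names. Under library totals 18 passed as higher and 0 as lower. That list was chosen by the study on these samples and is not independent evidence of a direction.

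The 2 strands of a hairpin come from the same precursor, so their ratio within a library depends little on size factors. Both strands were tested for 150 hairpins, and 131 had log2 fold changes of the same sign. The ratio of 5p to 3p, as log2 of (value + 1), changed for 44 hairpins at an adjusted p under 0.05 (29.3%), with 22 higher in the 5p share (14.7%) and 22 lower (14.7%). No hairpin had one strand called higher and the other called lower. The strand with the higher mean switched for 9 hairpins, of which 4 were among the 44.

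miR-30e, whose 5p strand is the guide, had log2 ratios of 2.81, 2.99 and 2.80 at the UIS and 4.44, 4.85 and 5.03 at the IS, a difference of 1.91 ± 0.21 (SE, adjusted p = 0.000406). By strand, miR-30e-3p had a log2 fold change of -3.40 and miR-30e-5p of -1.49, which turned to 0.89 under library totals. The neighbour in sequence miR-30a moved alike, from 3.83, 3.98 and 3.81 to 5.08, 5.14 and 5.17 (difference 1.26 ± 0.18). miR-25, whose 3p strand is the guide, had ratios of -9.27, -10.05 and -9.74 and -7.63, -7.36 and -7.43 (difference 2.21 ± 0.25). Its rare strand miR-25-5p rose by 1.53, a call lost with the block (adjusted p = 0.169) and on leaving out any 1 library but the UIS of mouse C, while miR-25-3p did not pass (-0.69, and 1.69 under library totals). The arm ratio itself kept its call in each of these settings.

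miR-455, whose hairpin in Col27a1 is known from cartilage, went from ratios of -3.38, -3.09 and -2.71 to 0.09, 0.11 and 1.46 (difference 3.61 ± 0.43, adjusted p = 0.00043), so that the 3p strand dominated at the UIS and both strands were near parity or the 5p strand ahead in the tumors. miR-455-3p fell from 1337, 896 and 258 normalized counts to 109.5, 111 and 92.2, and miR-455-5p, at 128, 104 and 38.4 and 117, 119 and 256, did not pass. miR-542 moved the other way, from 0.05, -0.48 and 0.69 to -2.32, -2.67 and -3.06 (difference -2.77 ± 0.40). miR-542-3p rose by 4.08 and miR-542-5p did not pass (1.31, adjusted p = 0.0505). For these 5 hairpins the libraries of the sides did not overlap. They were named for the smallest p-values of this same ratio, so the lack of overlap adds no support.

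**Figure D4:**
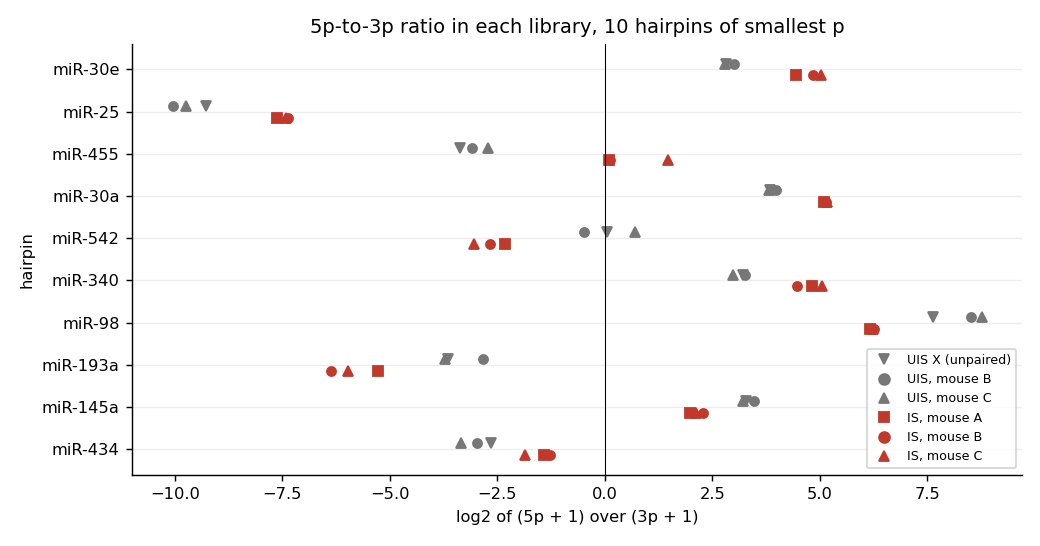
Log2 ratio of 5p to 3p (each value plus 1) in each library, for the 10 hairpins with the smallest p-values. Grey symbols are UIS and red symbols IS libraries, and 0 means equal strands. The sides do not overlap for any of the 10, which the choice by p-value makes likely.

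The tumors were more unlike each other than the UIS libraries, with a median SD of log2 values of 0.64 among the IS and 0.44 among the UIS libraries, and a larger SD at the IS for 341 of the 547 names. The tumor of mouse C was at least 4-fold above both other tumors for 39 names, against 1 for mouse A and 4 for mouse B. The 5 names with the widest range among tumors were strands of miR-133a, miR-133b and miR-483. miR-483-3p, hosted by the fetal growth factor gene Igf2, had 2.90, 2.17 and 1741 normalized counts in the tumors and 24.4, 23.3 and 123 at the UIS, and miR-483-5p had 1.45, 0 and 889 and 13.6, 22.0 and 73.0. In both cases the tumor of mouse C was above all UIS libraries and the other tumors were below them. Names chosen after their values were seen had the same tumor on top. miR-675-3p, cut from the imprinted RNA H19, had 2.18, 7.23 and 166 normalized counts in the tumors, and miR-335-3p, hosted by the imprinted gene Mest, had 1399.6, 549 and 14991. In the tumor of mouse B, miR-138-5p, known from brain, stood apart with 495, 5645 and 476. These levels in single animals have no replicate.

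The table that holds both species allowed a test of whether the change in mouse differed from that in Spalax, the blind mole rat, whose 2 fibrosarcomas were sampled 18 and 30 months after the injection. It holds 3 mouse IS and 2 mouse UIS libraries, without UIS X, under size factors set across species. It also holds libraries of Spalax with a benign granuloma, sampled 14 and 16 months after the injection. These entered the filter and the estimate of the spread, but not the 2 changes compared. Species, age, time after the injection and the match of reads to mouse names cannot be told apart as sources of a difference. Sex differs as well, since the mice were male and the Spalax with fibrosarcoma a male and a female. The Spalax were caught in the field, and the paper could not determine their ages accurately. Of 556 names tested, the change differed for 129 (23.2%), with 108 higher in mouse (19.4%) and 21 lower (3.78%). The numbers were 83 and 6 with the animal as a block, and edgeR on the recovered reads gave 78 and 7. The 129 calls became 74 without the IS library of mouse B, 71 without the UIS library of mouse C, and 84, 82 and 58 without the UIS or the IS library of the Spalax sampled at 30 months or the UIS library of that sampled at 18 months. The Dlk1-Dio3 domain took up most of the first group: 19 of the 23 names of its first part and 44 of the 52 of its second rose more in mouse (16 and 30 with the block). Of the names in these parts, 9 and 12 had at most 3 reads in every Spalax fibrosarcoma library, where no change could be measured. Among the others 13 of 14 and 36 of 40 rose more in mouse. The median change of the whole parts was 3.28 and 3.55 in mouse and -1.23 and -1.09 in Spalax. miR-127-3p had a change of 2.75 in mouse and -1.94 in Spalax, where it had 4536 and 7020 reads at the UIS (30 and 18 months) and 1827 and 1291 at the IS (difference 4.69 ± 0.91, adjusted p = 0.00705). miR-495-3p, in the second part, rose by 3.73 in mouse against -4.04 in Spalax, from 31 and 76 reads to 5 and 1.

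Both strands of miR-31 also rose more in mouse, with changes of 6.41 and 1.64 for miR-31-5p (difference 4.77 ± 1.34, adjusted p = 0.0293, and 0.106 with the block), and miR-31-3p did not pass with the block either (adjusted p = 0.0617). Of 30 names of the Sfmbt2 families 17 were higher in mouse, but 29 of the 30 had at most 3 reads in every Spalax fibrosarcoma library, among them all 17, so for these no change could be measured in Spalax and no fold is given. Of the 11 muscle names 3 differed, all with the more negative change in Spalax, and 7 did with the block, of which miR-1a-2-5p was not one (adjusted p = 0.0585). miR-206-3p had a change of -3.04 in mouse and -12.91 in Spalax (adjusted p = 0.0476), where the IS libraries held 4 and 1 reads. Of the inflammatory list, 2 of 6 names were lower in mouse, both strands of miR-146b. miR-146b-5p had a change of -0.46 in mouse and 3.11 in Spalax (adjusted p = 0.0256, and 0.066 with the block). miR-204-5p fell by 5.43 in mouse and had a change of -0.15 in Spalax (adjusted p = 0.0228), where the 2 animals went opposite ways, from 558 to 2514 and from 345 to 68 reads.

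**Figure D5:**
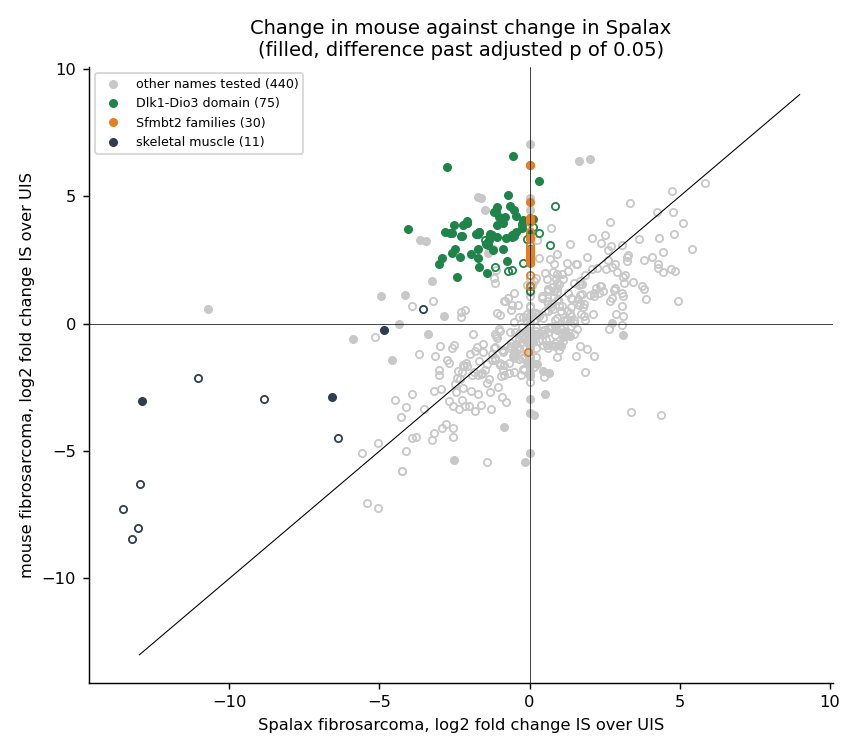
Log2 fold change (IS over UIS) in mouse against that in Spalax fibrosarcoma for 556 names, with the line of equal change. Filled points differ at an adjusted p under 0.05. Most Dlk1-Dio3 points lie at a positive change in mouse and a negative one in Spalax, and the Sfmbt2 points lie at a Spalax change of about 0.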

How the data were processed

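Small RNA libraries of 6 mouse samples (3 IS, 3 UIS) were compared, and 5 of these with 4 Spalax fibrosarcoma libraries. The authors made the libraries with a TruSeq small RNA kit in one lane and quantified reads with mirDeep. The submitters' processing notes also list TopHat 1.4.1, HTSeq, DESeq and the build GRCm38, with settings not given in the sources used here. As the values themselves show, the deposited signal is the read count scaled by a single factor per library. That factor is taken here to be a median-of-ratios size factor, which was not tested. Division by the step of each library returned whole reads for 100% of values (tolerance 0.01). Size factors assume that most names do not change, and 28 of the 547 tested names share all values with another.

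Values were taken as log2(value + 1), names with at least 10 in at least 3 of 6 libraries were kept, and limma 3.58.1 with a variance trend was fitted in R 4.3.3 with Benjamini-Hochberg adjustment at 0.05. In the table of both species the same fit was made over all its libraries, those of Spalax granuloma included, and the 2 fibrosarcoma changes were subtracted. The granuloma libraries thus add to the filter and to the spread behind the p-values. The arm ratio was tested in the same way. edgeR 4.0.16 and DESeq2 1.42.0 were run on recovered reads only as alternatives. The tests were checked on simulated counts that had the spread of the UIS libraries on both sides, changes balanced in direction and no shared animals. The check does not cover the wider spread of the tumors, the difference in composition or the pairing. Totals per library were 3455106 to 13982842 reads, which limits counting precision for rare names only.

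Groups came from the labels. Within a side, samples are separate animals. The p-values of the main fit measure the spread between animals within a side and treat the sides as unpaired. Mice B and C gave both sides, so the labels pair them, and the correlation of their deviations was -0.11 and 0.12. The block refers to a term for the animal. UIS X was not paired. With the block, the mouse change and its p-value therefore rest on mice B and C alone and do not cover the tumor of mouse A. Named microRNAs were the 10 largest rises and falls without overlap, the 10 highest means per side, up to 4 of the most abundant members of each list, the 5 smallest p of the arm and species tests and the 5 widest ranges among tumors, and others are said to be chosen after their values were seen or stand for a family described. Members and lists were chosen with earlier results of these data known. Hairpins and positions come from GENCODE M21 (GRCm38), and 520 of the 547 names were matched. RNAfold 2.7.2 gave the loops.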

Additional observations from a re-analysis of the deposited data

Results flagged for a closer look

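The change from UIS to IS differed between mouse and Spalax fibrosarcoma for 129 of 556 names by the test of the difference itself. Of the 5 names with the smallest p-values, only miR-495-3p of the Dlk1-Dio3 domain had reads in both species. Its difference was 7.77 on the log2 scale, with a change of 3.73 in mouse and -4.04 in Spalax. The other 4 fitted values are set by the pseudocount, since a species had 0 reads throughout and no change could be measured there, and none of the 4 passed in edgeR. They were 7.07 for miR-6539 and 6.25 for the shared values of miR-466o-5p and miR-466b-5p, each with 0 reads in all Spalax fibrosarcoma libraries, and 4.34 for miR-653-3p, with 0 reads in mouse, 11 and 26 reads at the Spalax UIS and 0 at the Spalax IS. The part that the match of Spalax reads to mouse names had in these values was not tested.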

How the results depend on the processing

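The 316 calls of IS against UIS ranged from 189 to 289 on leaving out 1 library, with 189 without the UIS and 203 without the IS library of mouse B. Other settings gave 316 by edgeR with TMM, 314 by edgeR with DESeq2 size factors, 338 by DESeq2 and 227 with the replicate block, which kept 217 of the 316, lost 99 and gained 10. Library totals gave 407 calls. The 44 arm ratios ranged from 31 to 41 on leaving out 1 library. The 129 differences to Spalax ranged from 58 to 120 on leaving out 1 library and were 85 by edgeR and 89 with the replicate block. Of 108 named microRNAs 82 passed, 66 of these in every fit without 1 library that tested them, and 0 changed sign there. Among the 66, miR-466b-5p, miR-31-3p, miR-297a-5p, miR-669m-5p, miR-124-3p and miR-1963 were tested in only 3 of those fits. In the others they did not pass the filter. Under library totals the log2 fold change turned to 0.64 for let-7f-5p, 0.73 for let-7a-5p, 1.43 for let-7c-5p, 1.92 for let-7i-5p, 1.70 for miR-10a-5p, 0.18 for miR-10b-5p, 1.45 for miR-27b-3p, 1.14 for miR-144-3p, 0.21 for miR-150-5p, 1.39 for miR-29a-3p, 0.037 for miR-126a-3p, 1.69 for miR-25-3p, 1.71 for miR-34a-5p, 0.066 for miR-203-3p, 0.51 for miR-466i-5p, 0.44 for miR-30d-5p, 0.89 for miR-30e-5p, 0.20 for miR-26b-5p, 0.45 for miR-101a-3p, 0.56 for miR-192-5p and 0.84 for miR-181a-5p. miR-483-5p, which had 1 high tumor, turned to 3.27 and 3.05 by edgeR with TMM and DESeq2 factors, 3.04 by DESeq2, 1.48 under library totals, 0.24 with a pseudocount of 10, and 0.03 and 0.68 without the IS library of mouse A or B (range -4.22 to 0.68 on leaving out 1 library). miR-483-3p turned to 3.58, 3.36, 3.36, 1.77 and 0.28 in the same settings, 0.44 with the replicate block, and 0.81, 0.96 and 0.16 without the IS of mouse A or B or the UIS of mouse C (range -3.60 to 0.96). miR-29b-3p turned to -0.046 without the IS of mouse B. Apart from the scaling, the cause of these turns was not tested. Within-library ratios and list counts without UIS X were chosen after seeing the data. Sums over seed families were not run, because mature sequences were not used here. Depth limits names near 3 reads per library.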

Other observations

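Single libraries stood apart within a side, and the names below were chosen after their values were seen. The UIS library of mouse C was at least 4-fold above both other UIS libraries for 9 names and as far below for 16. Among the first were microRNAs of the Hox clusters, which mark position along the body. miR-196a-5p had 33.9, 8.24 and 34392 normalized counts at the UIS and 60.9, 147 and 7.78 at the IS, miR-196b-5p 5.43, 4.12 and 3399 and 8.34, 18.1 and 782, and miR-615-3p 59.7, 8.24 and 920.5 and 288, 134 and 100.01. In the same library the slow muscle microRNAs miR-208b-3p and miR-499-5p had 80.7 and 32.7, below both other UIS libraries, and the red cell microRNA miR-451a was highest. These levels rest on 1 library.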
